A study of Mus musculus with 28 samples.

Results

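The clustered protocadherins are the cell adhesion genes of 3 neighbouring clusters, alpha, beta and gamma, and were taken as every listed gene whose name begins with Pcdha, Pcdhb or Pcdhg. There were 59 such entries among the 22919 genes of the study's comparison tables. The alpha cluster held 14 entries, the beta cluster 22 and the gamma cluster 22. The remaining entry, Pcdha4-g, has a span that reaches into all 3 clusters. Of the 59, only Pcdha4-g and Pcdha1 had reads counted in the comparison tables, and neither passed the test in any of the 7 comparisons. The other 57 were listed at a mean count of 0, although 55 of them had a level of at least 1 FPKM (fragments scaled by gene length and sequencing depth) in the study's other table.

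Clustered protocadherins are cadherin-like surface proteins that neurons use to tell their own branches from those of other neurons. Each alpha or gamma isoform begins at its own variable exon with its own promoter and is spliced to constant exons shared by the whole cluster, whereas beta genes are single exons with no constant part. In most neurons promoters are chosen in a largely random way with the help of CTCF, cohesin and DNA methylation, while the C-type isoforms at the end of the alpha and gamma clusters (Pcdhac1, Pcdhac2, Pcdhgc3, Pcdhgc4 and Pcdhgc5) are expressed more uniformly. Astrocytes are known to express clustered protocadherins too.

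Nascent RNA was measured by Bru-seq, in which bromouridine taken up by living cells marks newly made RNA for capture and sequencing. The cultures were cortex and hippocampus of CD1 mouse embryos at embryonic day 18 and contained neurons, astrocytes and oligodendrocyte precursors. Each library came from a culture pooled from embryos matched for sex ratio. All cultures were infected with lentivirus on day in vitro 14, with a control hairpin (the shCtrl arm) or a hairpin that targets Rai1, which encodes a chromatin-associated protein (the shRai1 arm), so no group was free of virus. On day 17 they received vehicle (water), 1 µM tetrodotoxin (TTX, which blocks sodium channels and silences firing) or 20 µM bicuculline (BIC, which blocks inhibitory GABA-A receptors and raises firing) for 4 h. Bromouridine (2 mM) was present for the last 20 min. The 16 libraries fell into 6 groups of 3, except shCtrl vehicle and shCtrl BIC with 2 libraries each. By their labels these were replicates 1 and 2 of shCtrl vehicle and replicates 2 and 3 of shCtrl BIC. Comparisons of these 2 groups therefore set unlike replicate numbers against each other.

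Values per library were not used here, so depth per library is unknown and each value below is a mean, a pooled level or a fitted change. Rai1 itself, with a mean normalized count of 6523, had log2 changes in the authors' deposited table of 0.16 ± 0.0730 (SE) in vehicle, -0.12 ± 0.0643 in TTX and 0.03 ± 0.0728 in BIC, with DESeq2 adjusted p of 0.357, 1.00 and 1.00. The nascent level of the targeted gene therefore does not check the labels of the arms, and each knockdown direction rests on those labels. Of the 18 neuron markers all had a mean count of at least 50, as did 13 of 15 astrocyte, 6 of 14 oligodendrocyte lineage and 3 of 13 microglia markers, and no marker was at 0.

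All 59 entries carried the same interval in the FPKM table, chromosome 18 from 37089939 to 38001526 in the mouse build mm9, a length of 912 kb. The interval was shared by 61 entries, the other 2 being Taf7, a subunit of the general transcription factor TFIID, and Slc25a2, a mitochondrial carrier. It was the most crowded of the table's 20996 intervals, ahead of one with 38 entries. The interval therefore gives no separate position for any member, and the order of the genes was taken by name from the RefSeq annotation of another build, GRCm38.p6. All 59 matched RefSeq, 58 by symbol and Pcdha4-g as a synonym of Gm37013.

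In the comparison tables, which give the authors' mean of scaled counts over all libraries, Pcdha4-g stood at 653, above 76% of the 21192 tested genes. Pcdha1, the first gene of the alpha cluster, stood at 9.32, above 27.6% of them. All 22 beta and all 22 gamma entries were at 0, as were the other 13 alpha entries. In RefSeq, 57 of the 59 members lie wholly inside the spans of other members, and these were the same 57 that had no counts. Neither of the tested members lies inside others, and Pcdha4-g overlaps the other 58, of which 55 lie wholly inside its span. Among the other listed genes, with strand ignored, 318 of 905 that lie inside other genes had a mean of 0 (35.1%), against 1279 of 21733 that do not (5.89%). How the counting treated overlapping genes is not given in the sources used here, and its part in the zeros was not tested. Which part of its span gave the counts of Pcdha4-g is therefore not known, and its changes are not read as those of the whole clusters. A count of 0 in these tables is thus not read as absence of transcription.

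The FPKM table, computed by the authors over the full length of each gene as the name of their table says, had levels for the same 57. Of the 1672 genes at count 0 that it lists, 400 had a mean of at least 1 FPKM over the 3 shCtrl conditions, and 55 of those (13.8%) were clustered protocadherins. No other interval held more than 7 of them. The exceptions were Pcdha4, at 0.111, 0 and 0.127 FPKM in shCtrl vehicle, TTX and BIC, and Pcdhb1, at 0.132, 0.0946 and 0.0584 FPKM. Whether the FPKM of an entry belongs to that gene alone cannot be told apart here from signal of the genes that overlap it.

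**Figure D1:**
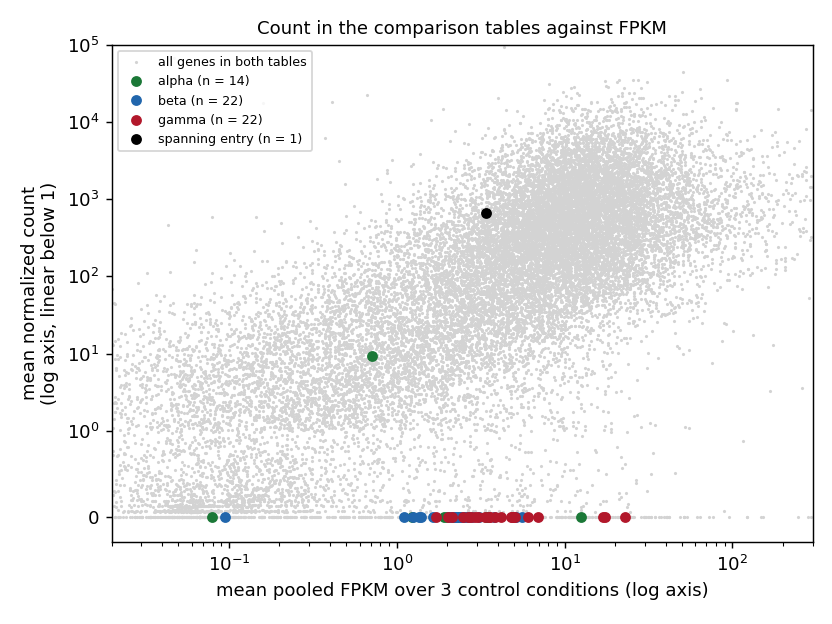
Mean normalized count in the comparison tables (vertical, log axis, linear below 1) against mean pooled FPKM over the 3 shCtrl conditions (horizontal, log axis). Grey points are all genes in both tables within the axes and coloured points are the 14 alpha, 22 beta and 22 gamma entries and the spanning entry Pcdha4-g; 57 coloured points lie on the line of count 0, the rightmost being Pcdhgc5 at 23.0 FPKM, and only Pcdha4-g (653) and Pcdha1 (9.32) lie above it.

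The C-type isoforms had the highest FPKM in the set. In shCtrl vehicle Pcdhgc5 stood at 21.7 FPKM, with the authors' bounds from 2.95 to 40.5. Pcdhgc4 stood at 17.7 FPKM (0.837 to 34.6), Pcdhgc3 at 16.7 (0.427 to 33.0) and Pcdhac2 at 12.2 (0 to 25.2). The remaining C-type isoform, Pcdhac1, was lower, at 3.70 FPKM, within the range of its alpha neighbours. Outside the C-type the highest level was 7.26 FPKM, of Pcdhga11. The same 4 entries, Pcdhgc5, Pcdhgc4, Pcdhgc3 and Pcdhac2, were the highest in all 6 condition columns, and Pcdhgc5 led in each. The 5 C-type isoforms made up 30.6% of the summed FPKM of the 59 entries in vehicle, 31.6% in TTX and 36.4% in BIC.

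These orders were not separable by the table's own bounds. The lower bound was 0 in vehicle for 56 of the 59 entries, and above 0 only for Pcdhgc3, Pcdhgc4 and Pcdhgc5. Of 1711 pairs of members, 2 had bounds that did not overlap, Pcdhgc5 against Pcdha4 and Pcdhgc5 against Pcdhb1. The bounds are the authors' and come from 1 pooled value per condition, so no spread over libraries stands beside them. FPKM is scaled by gene length, whose part in the higher C-type levels was not tested.

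**Figure D2:**
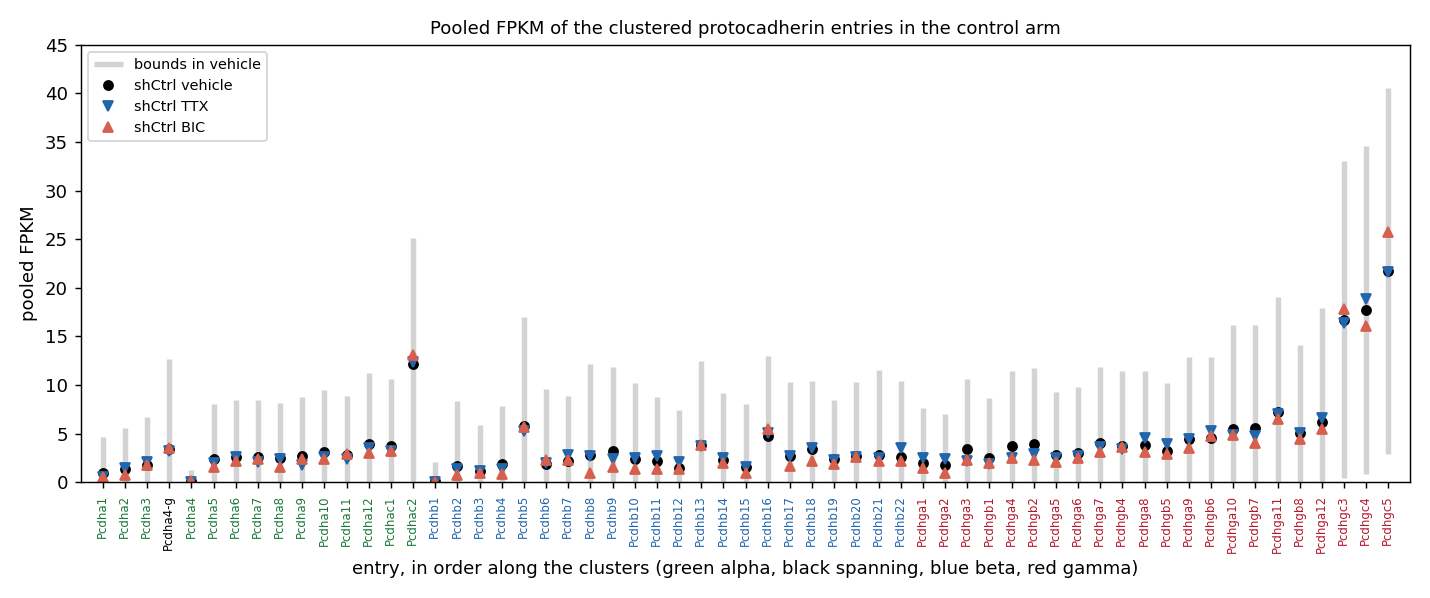
Pooled FPKM (vertical) of each clustered protocadherin entry in shCtrl vehicle (black circles), TTX (blue triangles) and BIC (red triangles), in RefSeq gene order; grey bars are the authors' bounds in vehicle. Levels are higher toward the end of the alpha and gamma clusters, with Pcdhac2, Pcdhgc3, Pcdhgc4 and Pcdhgc5 at 12.2 to 21.7 FPKM in vehicle, and nearly all bars reach 0.

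In the alpha cluster the median FPKM in vehicle was 2.59. Pcdha1 at the start had 1.02 FPKM, Pcdha2 had 1.38 and Pcdha3 had 1.80. The middle entries Pcdha5 to Pcdha11 lay between 2.36 and 3.10 FPKM, and Pcdha12, the last before the C-type, had 4.00. Pcdha4 was the only alpha entry below 1 FPKM. Levels were thus mostly higher toward the end of the cluster, with falls from Pcdha3 to Pcdha4, from Pcdha7 to Pcdha8, from Pcdha10 to Pcdha11 and from Pcdha12 to Pcdhac1. Spearman's coefficient between gene order and FPKM over the 14 entries was 0.95 in vehicle, 0.82 in TTX and 0.89 in BIC, and over the 12 without the C-type 0.93, 0.72 and 0.83.

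The gamma cluster had the highest median, 4.00 FPKM in vehicle. Its levels were also higher toward the end, from 2.05 FPKM for Pcdhga1 and 1.77 for Pcdhga2 through 4.04 for Pcdhga7 to 7.26 for Pcdhga11 and 6.24 for Pcdhga12, the last before the C-type. Spearman's coefficient with gene order over the 22 entries was 0.92 in vehicle, 0.97 in TTX and 0.96 in BIC. Over the 19 without the C-type it was 0.88, 0.95 and 0.94. A-type and B-type genes are interspersed along the cluster. Pcdhgb6 at 4.58 FPKM stood beside Pcdhga9 at 4.50, whereas Pcdhgb1 at 2.49 lay below both its neighbours, Pcdhga3 at 3.44 and Pcdhga4 at 3.76, and Pcdhgb8 at 5.13 lay below Pcdhga11.

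The beta cluster followed its order less closely, with a coefficient of 0.47 in vehicle, 0.44 in TTX and 0.49 in BIC over 22 entries. Its median in vehicle was 2.42 FPKM. The highest beta entries were Pcdhb5 at 5.82 FPKM, Pcdhb16 at 4.76 and Pcdhb13 at 3.86, each with lower neighbours: Pcdhb4 and Pcdhb6 beside Pcdhb5 both had 1.87 FPKM. Pcdhb1 was the only beta entry below 1 FPKM. The correlations are descriptions. The entries share their libraries, spans overlap within the alpha cluster and within the gamma cluster, and base composition was not examined. FPKM is also scaled by gene length, and the RefSeq spans differ along the order. With exceptions between, the members inside a span went from 7 for Pcdha1 to 0 for Pcdhac2. In gamma they went from 11 for Pcdhga1 to 0 for Pcdhgc5. The part of gene length in these orders was not tested.

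In the shCtrl arm the summed FPKM of each cluster with TTX was close to that in vehicle. The 14 alpha entries summed to 42.9 FPKM in vehicle and 39.3 in TTX, the beta entries to 56.1 and 56.7, and the gamma entries to 133 and 130. The median ratio of TTX to vehicle was 0.872 for alpha, 1.01 for beta and 0.976 for gamma. In alpha 10 of 14 entries were lower, in beta 11 of 22 and in gamma 15 of 22. Over all 59 entries the median was 0.973, with 37 lower and 22 higher. Spans overlap within alpha and within gamma, so these are not counts of independent units. Among the 15688 genes with at least 1 FPKM in vehicle the median was 0.994 and 51.3% were lower. The bounds of TTX and vehicle overlapped for every member, against 2.59% of those genes with bounds apart. Among the 15547 genes within the members' range of FPKM, 0.849% had bounds apart and the median ratio was 1.01. With a lower bound of 0 for most members, overlapping bounds say little. In these bulk libraries fewer cells of a type and less RNA per cell cannot be told apart.

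With BIC more of the entries had lower levels, again in values with no test. The beta sum was 44.8 FPKM against 56.1 in vehicle, the alpha sum 38.1 against 42.9, and the gamma sum 122 against 133. The median ratio of BIC to vehicle was 0.790 for beta, 0.851 for alpha and 0.822 for gamma, and 0.809 over the 59 entries. Of the 59, 47 were lower and 12 higher. Spans overlap within alpha and within gamma, so the entries are not independent units and these counts carry no test. Pcdha4-g, which overlaps all the others, stood at 3.41 FPKM in vehicle and 3.49 in BIC. In the same 15688 genes the median ratio was 0.969 and 53.7% were lower. No member had bounds apart from vehicle, against 5.97% of those genes and 4.06% of the genes within the members' range, so the lower values lie within the table's own bounds.

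The lower values were spread over the 3 clusters and were fewer among the C-type isoforms. In beta 18 of 22 entries were lower, in gamma 19 of 22 and in alpha 10 of 14, the same count as with TTX. Without the C-type, 18 of 19 gamma entries and 9 of 12 alpha entries were lower, with median ratios of 0.801 and 0.807. The C-type median was 1.06, with 3 higher and 2 lower. Pcdhgc5 stood at 21.7 FPKM in vehicle, 21.7 in TTX and 25.7 in BIC. Pcdhgc3 stood at 16.7, 16.4 and 17.8 FPKM and Pcdhac2 at 12.2, 12.3 and 13.1. Pcdhgc4, at 17.7, 18.8 and 16.1 FPKM, and Pcdhac1, at 3.70, 3.28 and 3.26, were lower with BIC. The difference between the C-type and the others was not tested.

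Single entries differed widely in this ratio. The lowest was 0.351, of Pcdhb8, which stood at 2.81 FPKM in vehicle, 2.76 in TTX and 0.986 in BIC. Pcdhb2 followed a like order, at 1.70, 1.34 and 0.732 FPKM. The highest was 1.26, of Pcdhb6, at 1.87, 1.95 and 2.36 FPKM. Pcdhb5 and Pcdhb16, the highest beta entries, stood at 5.65 and 5.44 FPKM in BIC, with ratios of 0.971 and 1.14. Pcdhb8 in BIC had an upper bound of 6.30 FPKM, above its level in vehicle. Beside these values, the summed FPKM of the 15 astrocyte markers was 622 in vehicle, 520 in TTX and 476 in BIC, that of the 18 neuron markers 1103, 1022 and 1285, that of the 14 oligodendrocyte lineage markers 211, 186 and 211, and that of the 13 microglia markers 51.8, 43.0 and 76.1. A few high genes weigh on these sums. The medians, in the same order of conditions, were 27.8, 27.9 and 19.7 FPKM for astrocyte, 65.5, 55.0 and 54.0 for neuron, 4.39, 3.82 and 4.54 for oligodendrocyte lineage and 1.07, 0.854 and 0.950 for microglia markers, so sum and median went opposite ways with BIC for neuron, microglia and, by little, oligodendrocyte lineage markers. With BIC in shCtrl, where 27.1% of all tested genes were called, 8 neuron markers rose and 8 fell, 1 astrocyte marker rose and 6 fell, 2 oligodendrocyte lineage markers fell and 3 microglia markers rose. With TTX in shCtrl, where 19.5% were called, 3 neuron markers rose and 5 fell, 5 astrocyte markers fell, 1 oligodendrocyte lineage marker rose and 4 fell, and 0 microglia markers were called. Their part in the protocadherin levels was not tested.

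**Figure D3:**
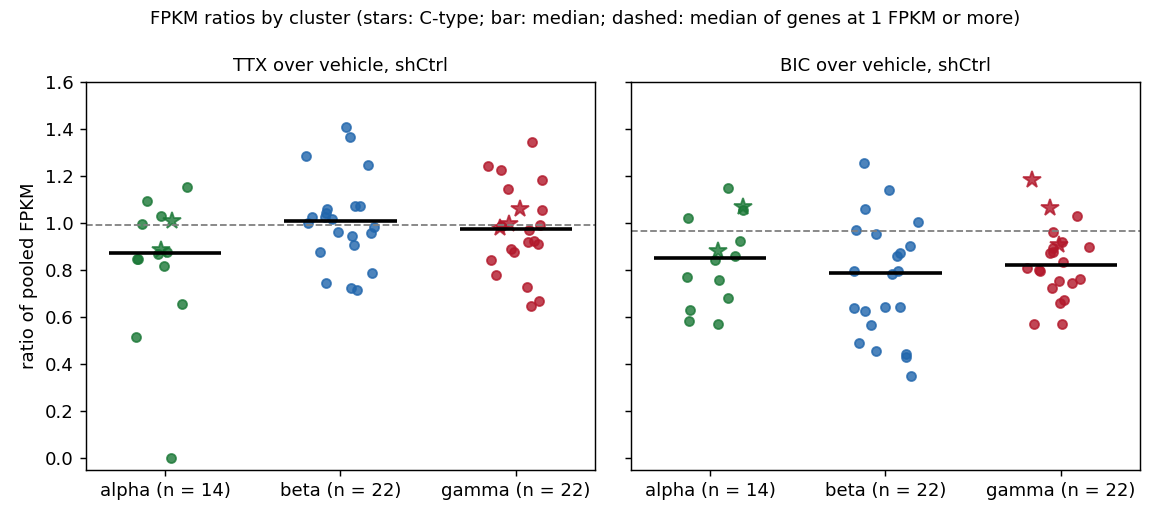
Ratio of pooled FPKM in TTX (left) or BIC (right) to vehicle in the shCtrl arm for the 14 alpha, 22 beta and 22 gamma entries; stars are C-type isoforms, bars the cluster medians and the dashed line the median of the 15688 genes with at least 1 FPKM in vehicle. With TTX the medians are 0.872, 1.01 and 0.976 against 0.994; with BIC they are 0.851, 0.790 and 0.822 against 0.969, and 3 of the 5 stars lie above 1.

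The 3 FPKM columns of the shRai1 arm could not be assigned to their treatments, since the column names and the knockdown comparisons disagreed over all genes, and are given as ranges. The 59 entries summed to between 208 and 230 FPKM in these columns, against 235 in vehicle, 229 in TTX and 209 in BIC of the shCtrl arm. Pcdhgc5 ranged from 21.2 to 23.5 FPKM, Pcdhgc4 from 15.9 to 19.3, Pcdhgc3 from 15.4 to 17.3 and Pcdhac2 from 11.1 to 15.7. Pcdha4-g ranged from 2.28 to 3.38 FPKM and Pcdha1 from 0.599 to 0.960.

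The tests of the 7 comparisons were those of the authors' DESeq2 fit, in which a gene was called at an adjusted p under 0.05. With TTX in the shCtrl arm 19.5% of tested genes were called, and 0 of the 2 tested members. In the authors' deposited table Pcdha4-g had a log2 change of 0.23 ± 0.137 (SE), with an unadjusted p of 0.0934 and an adjusted p of 0.226. In the shRai1 arm, where 22.3% of tested genes were called, the authors' deposited table gives it 0.19 ± 0.121, with an adjusted p of 0.246. Both values were above 0 and within 2 standard errors of it. Their 95% intervals ran from -0.04 to 0.50 and from -0.05 to 0.43, so that values under -0.05 lie outside both. The pooled FPKM of Pcdha4-g went the other way, from 3.41 in vehicle to 3.27 in TTX, by less than its bounds (0 to 12.7 in vehicle).

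Pcdha1 had lower values with TTX, again short of the test. The authors' deposited table gives log2 changes of -0.48 ± 0.400 (SE) in shCtrl and -0.46 ± 0.375 in shRai1, with adjusted p of 0.425 and 0.396. Its FPKM in the shCtrl arm was 1.02 in vehicle and 0.527 in TTX, in the same direction. With a mean count of 9.32 the intervals were wide, from -1.26 to 0.31 in shCtrl and from -1.19 to 0.28 in shRai1.

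With BIC 27.1% of tested genes were called in the shCtrl arm and 35.1% in the shRai1 arm, and again 0 of the 2 tested members. The authors' deposited table gives Pcdha4-g log2 changes of -0.11 ± 0.153 (SE) and -0.16 ± 0.122, with adjusted p of 0.646 and 0.325. Its intervals, from -0.41 to 0.19 and from -0.40 to 0.08, reached no lower than -0.41 and no higher than 0.19. Its FPKM was 3.49 in BIC against 3.41 in vehicle. For Pcdha1 the authors' deposited table gives -0.43 ± 0.408 in shCtrl, with an adjusted p of 0.457. In shRai1 it gives -0.79 ± 0.384, with an unadjusted p of 0.0407 and an adjusted p of 0.0878. This was the only member and comparison of the 7 with an unadjusted p under 0.05, and it did not pass the adjustment.

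Knockdown of Rai1 was tested within each treatment. The share of genes called was 0.576% in vehicle, 0.0283% in TTX and 0.00944% in BIC, and neither member was among them or had an unadjusted p under 0.05. For Pcdha4-g the authors' deposited table gives log2 changes of 0.00 ± 0.137 (SE) in vehicle, -0.04 ± 0.121 in TTX and -0.05 ± 0.138 in BIC, with adjusted p of 0.998, 1.00 and 1.00. The intervals ran from -0.27 to 0.27, from -0.27 to 0.20 and from -0.32 to 0.22, so larger changes of this entry on the log2 scale lie outside them. For Pcdha1 the authors' deposited table gives 0.26 ± 0.390, 0.28 ± 0.388 and -0.09 ± 0.405, with unadjusted p of 0.499, 0.463 and 0.824. In vehicle Pcdha1 has no adjusted p there.

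**Figure D4:**
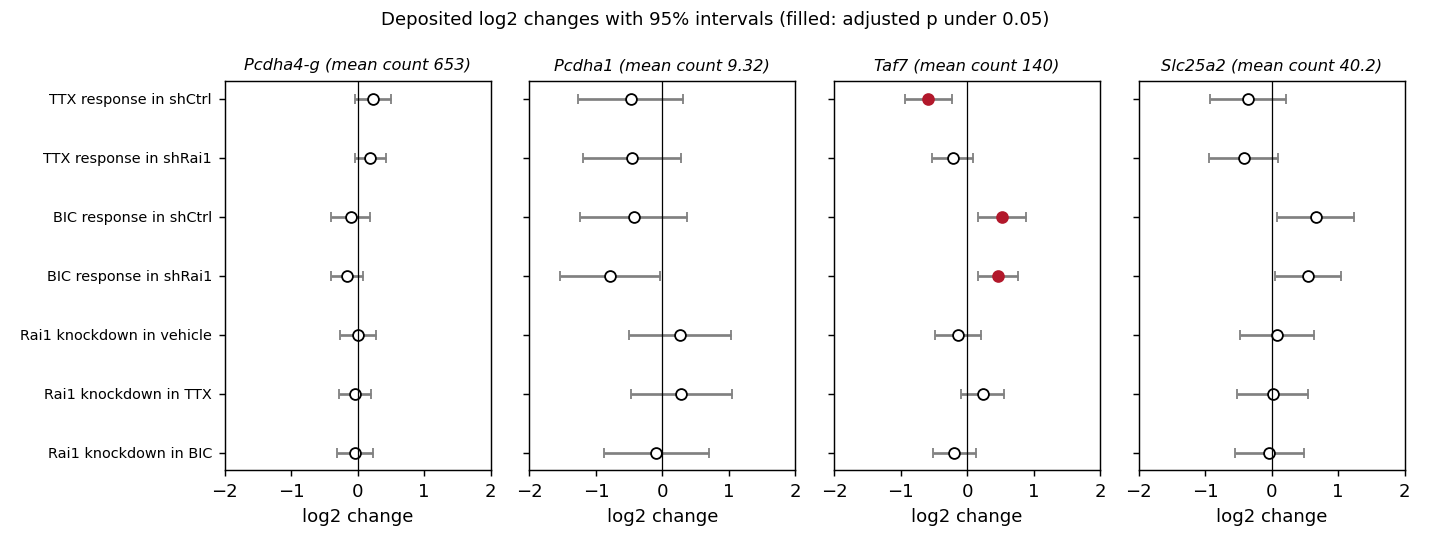
Log2 change (horizontal) with 95% interval in each of the 7 comparisons (rows) for the 2 tested members, Pcdha4-g and Pcdha1, and for Taf7 and Slc25a2, which share their interval; filled circles passed the adjusted threshold of 0.05. Every interval of Pcdha4-g reaches 0, the only interval of Pcdha1 that does not is that with BIC in shRai1 (-1.54 to -0.03), and Taf7 is filled with TTX in shCtrl (-0.58) and with BIC in both arms (0.52 and 0.47).

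Combining the arms, which share no library, narrowed the errors. The response to TTX averaged over arms was 0.21 ± 0.0913 (SE) for Pcdha4-g, with a two-sided Wald p of 0.0215 and a Benjamini-Hochberg adjusted p of 0.0626. The response to BIC averaged over arms was -0.13 ± 0.0979, with an adjusted p of 0.286 by the same test. For Pcdha1 the averaged responses were -0.47 ± 0.274 to TTX and -0.61 ± 0.280 to BIC, with Wald p of 0.0884 and 0.0298 and adjusted p of 0.202 and 0.0630. These tests called 33.1% of genes for TTX and 46.0% for BIC, and 0 of the 2 members in each. Adjusted over the genes with a mean count of at least 50 alone, the averaged TTX response of Pcdha4-g passed, at an adjusted p of 0.0456.

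The difference between the arms was tested directly. For TTX the difference, shRai1 minus shCtrl, was -0.04 ± 0.183 (SE) for Pcdha4-g and 0.02 ± 0.549 for Pcdha1, and for BIC it was -0.05 ± 0.196 and -0.35 ± 0.560. The Wald p of Pcdha4-g were 0.829 and 0.802. These interactions called 0.943% of genes for TTX and 0.0219% for BIC, and neither member, nor had either an unadjusted p under 0.05. The intervals of Pcdha4-g, from -0.40 to 0.32 for TTX and from -0.43 to 0.33 for BIC, still hold moderate differences between the arms in both directions.

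Pcdha4-g was measured less precisely than its count alone would give. Its standard error was larger than that of 96.1% to 97.5% of the 1389 genes with a mean count within 1.25-fold of its own, over the 7 comparisons. In the shCtrl arm with TTX it was 0.137 against a median of 0.106. Of the genes of like count, 34.7% were called with TTX and 46.7% with BIC in shCtrl, and 40.3% and 59.5% in shRai1. Among the 745 genes with a count like that of Pcdha1, 2.01% and 6.04% were called in shCtrl and 2.55% and 7.92% in shRai1. Pcdha1 is thus in a range of counts where few genes pass, and Pcdha4-g is not.

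Taf7 and Slc25a2 lie between the beta and gamma clusters, inside the span of Pcdha4-g. The authors' deposited table gives Taf7, with a mean count of 140, log2 changes of -0.58 ± 0.180 (SE) with TTX in shCtrl (DESeq2 adjusted p 0.00714), 0.52 ± 0.187 with BIC in shCtrl (0.0172) and 0.47 ± 0.154 with BIC in shRai1 (0.00720). With TTX in shRai1 it did not pass (adjusted p 0.331). Slc25a2, with a mean count of 40.2, had log2 changes of 0.66 and 0.55 with BIC in the authors' deposited table, with adjusted p of 0.0687 and 0.0677, and passed only in the response averaged over arms, at 0.60 ± 0.194 (Wald, adjusted p 0.00510). Their FPKM had the same order, at 11.5 in vehicle, 7.95 in TTX and 18.0 in BIC for Taf7 and 8.81, 6.44 and 15.5 for Slc25a2. Both thus had higher FPKM with BIC, where 47 of the 59 protocadherin entries around them had lower FPKM. The authors' bounds of vehicle and BIC overlapped, at 0 to 27.3 and 0 to 36.8 for Taf7. For Slc25a2 they were 0 to 31.5 and 0 to 44.3. The difference between this pair and the members was not tested.

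Of 15 genes in and around the clusters, that pair included, 4 were called with TTX and 5 with BIC in shCtrl, and 4 and 8 in shRai1. The shares over all tested genes were 19.5% and 27.1% in shCtrl and 22.3% and 35.1% in shRai1. The median log2 changes of the list were -0.27 and 0.15 in shCtrl and 0.04 and 0.08 in shRai1, against 0.00 over all tested genes in each. In the authors' deposited table Hars, the histidyl-tRNA synthetase beside the alpha cluster, had the smallest adjusted p with BIC, at log2 changes of 1.17 ± 0.107 in shCtrl and 1.32 ± 0.0844 in shRai1 (DESeq2 adjusted p 7.89e-26 and 3.69e-53). In the authors' deposited table it fell with TTX in both arms, by 0.54 and 0.41 on the log2 scale. Dnd1, which encodes an RNA-binding protein of germ cells, rose with BIC by 1.45 and 1.40 in the authors' deposited table, Fchsd1 by 0.83 and 1.15, and Diap1 (Diaph1, an actin-nucleating formin) by 0.29 and 0.42. In the authors' deposited table the histone deacetylase gene Hdac3 fell with TTX by 0.43 and 0.50, and the non-clustered protocadherin Pcdh1 rose with TTX by 0.50 and 0.40. The remaining calls in the authors' deposited table were in shRai1, where Rell2 fell with TTX by 0.50, Hars2 and Rnf14 fell with BIC by 0.30 and 0.19, and Pcdh1 rose with BIC by 0.24. No gene of the list passed in the interactions, which test the difference between the arms. None of the 15 passed in a knockdown comparison.

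The 22 tested genes of chromatin architecture and silencing at the clusters had 2 rises and 1 fall with TTX in shCtrl, 4 and 1 in shRai1, 5 and 2 with BIC in shCtrl and 7 and 2 in shRai1. In the same order 19.5%, 22.3%, 27.1% and 35.1% of all tested genes were called, and the calls are not read as particular to these genes. Their medians were 0.01, 0.08, -0.05 and -0.07. Ctcf, the factor that binds protocadherin promoters and enhancers, passed in none of the 7 comparisons and had log2 changes in the authors' deposited table of 0.00 ± 0.0757 with TTX and -0.12 ± 0.0853 with BIC in the control arm. Its BIC response averaged over arms, -0.12 ± 0.0543, had an adjusted p of 0.0492 (Wald). In the authors' deposited table Dnmt1, the maintenance DNA methyltransferase, rose with BIC by 0.82 ± 0.109 in shCtrl and 0.95 ± 0.0854 in shRai1 and fell with TTX by 0.27 in both. Dnmt3a, a de novo methyltransferase, fell with BIC by 0.40 and 0.49 and rose with TTX in shCtrl by 0.29 in the authors' deposited table. Smchd1, a silencing factor of the SMC family, rose with BIC by 0.33 in both arms in the authors' deposited table. Wapal and Pds5a, which regulate cohesin release, rose with BIC by 0.34 and 0.28 in shCtrl and by 0.40 and 0.24 in shRai1 in the authors' deposited table. Also called in shCtrl by the authors' deposited table were Atf7ip, a partner of the methyltransferase Setdb1, which fell with BIC by 0.47, and Mau2, a cohesin loader, which rose with TTX by 0.24. In shRai1, in the authors' deposited table, the cohesin genes Stag2, Rad21 and Smc3 rose with TTX by 0.43, 0.39 and 0.26 and Atf7ip by 0.39. In the same comparison 6 of 14 oligodendrocyte lineage markers rose and 0 fell, with a list median of 0.38. Among the other markers 2 astrocyte markers rose and 1 fell, 2 neuron markers rose and 4 fell, and 1 microglia marker fell. The part of these markers in the rises was not tested. With BIC in shRai1 Smc3 and the loader Nipbl rose by 0.25 and 0.24 and Wiz fell by 0.37 in the authors' deposited table. No gene of the list passed in a knockdown comparison or in an interaction. Of all tested genes, 0.576%, 0.0283% and 0.00944% were called with knockdown in vehicle, TTX and BIC. The interactions called 0.943% for TTX and 0.0219% for BIC, so the zero counts are not read as particular to this list.

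Of the 19 genes for proteins that process, bind or signal from clustered protocadherins, 3 rose and 2 fell with TTX in shCtrl, and 4 rose and 5 fell in shRai1. With BIC 5 rose and 4 fell in shCtrl and 9 rose and 7 fell in shRai1. The shares called over all tested genes were 19.5% and 22.3% with TTX and 27.1% and 35.1% with BIC. The list's medians were -0.08, 0.03, -0.14 and 0.01. Among the kinases, Fyn rose with BIC in the authors' deposited table by 0.92 ± 0.0720 in shCtrl and 0.93 ± 0.0562 in shRai1, and Ptk2 (FAK) by 0.63 and 0.61. Ptk2b (PYK2) fell by 0.58 and 0.53 with BIC and rose by 0.54 and 0.30 with TTX in the authors' deposited table. The WAVE complex drives actin branching and is one that alpha protocadherins can recruit. Of its genes in the authors' deposited table, Nckap1 rose with BIC by 0.45 and 0.52 and fell with TTX by 0.38 and 0.29, Abi1 rose with BIC by 0.31 and 0.40, and Wasf1 fell with BIC by 0.50 and 0.48. Cyfip1 rose with TTX by 0.24 and 0.26, and the GTPase gene Rac1 rose with BIC by 0.30 and 0.28 in the authors' deposited table. Adam10, a protease that sheds protocadherin ectodomains, fell with BIC by 0.28 and 0.20 in the authors' deposited table. Of the gamma-secretase subunits in the authors' deposited table, Psen2 fell with BIC by 0.48 and 0.60, and Ncstn rose with TTX by 0.32 and 0.34. Further calls were in shRai1: Nlgn2, Cyfip2 and Rac1 fell and Marcks rose with TTX, while with BIC Marcks, Abi2 and Nlgn1 rose and Ncstn, Aph1a and Cyfip2 fell. None passed in a knockdown comparison or in an interaction.

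The 12 non-clustered protocadherins, which are separate genes outside the clusters (Pcdh1 and Pcdh12 lie near them), were all tested. With TTX 8 fell and 1 rose in shCtrl, and 4 fell and 2 rose in shRai1, with median log2 changes of -0.46 and -0.25, where 19.5% and 22.3% of all tested genes were called. With BIC 6 rose and 1 fell in shCtrl and 9 rose and 1 fell in shRai1, with medians of 0.32 and 0.72, where 27.1% and 35.1% of all tested genes were called. The TTX interaction passed for 1 of the 12, Pcdh11x, named after its values were seen, at 0.59 ± 0.157 for shRai1 minus shCtrl (Wald, adjusted p 0.0283), where 0.943% of all genes tested were called. In the same interaction 6 of 14 oligodendrocyte lineage markers were higher, with a median of 0.43 over the list, as was 1 of 15 astrocyte markers, 1 of 18 neuron markers was lower and 0 of 13 microglia markers were called, and their part in this value was not tested. The medians over all tested genes were 0.00 in each, and the difference between these genes and the clustered ones was not tested. None of the 12 passed in a knockdown comparison, where their medians were -0.21 in vehicle, 0.01 in TTX and 0.05 in BIC. Of all tested genes 0.576%, 0.0283% and 0.00944% were called in the same order. With knockdown in vehicle, where 0.576% of tested genes were called, 4 of 14 oligodendrocyte lineage and 2 of 15 astrocyte markers fell. The medians of those 2 marker lists were -0.44 and -0.18. Of the 18 neuron markers 1 rose, and 0 of 13 microglia markers were called. The part of these markers in the vehicle median of -0.21 was not tested.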

How the data were processed

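Bru-seq of 16 libraries was deposited as summaries; 12 ChIP-seq samples were not analysed here. Per the submitters' processing notes, reads were handled with TopHat2 2.1.0, Bowtie2 2.2.6, build mm9 and DESeq2. The 7 comparison tables hold, per the file headers, a mean normalized count (a signal averaged by the authors over libraries after scaling), a log2 fold change with its standard error, a Wald score computed by the authors, a p-value and, deposited with it, the adjusted one. For each condition the authors' FPKM table holds a single pooled level and its bounds, per the file headers. The read counter is not given in the sources used here. Nothing was refitted: the main tests are the authors' deposited Wald tests over 21192 genes with reads. Deposited p-values differed from the normal tail of the score by at most 8.91e-10.

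The vehicle knockdown table has no gene names. Names were assigned by unique mean count to 20107 genes, both tested members included. Interactions and averages over arms were computed from the deposited changes, with the root of the summed squared errors, a two-sided Wald test and Benjamini-Hochberg adjustment over the 18241 genes whose mean reached 0.1 FPKM (Python 3.11.15, pandas 2.3.3, numpy 2.4.6, scipy 1.17.1), a step tested on simulated data. Intervals are 95% and normal. Standard errors did not grow at the lowest counts. With TTX in shCtrl they were 0.390 for Pcdh12, at a mean count of 2.43, and 0.400 for Pcdha1, at 9.32. Whether the authors' fit pulled changes of genes with low counts toward 0 was not examined, which limits their intervals. P-values measure the spread between the cultures sequenced.

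RefSeq served for names, order and overlap of spans only, since its build differs from mm9; no sequences are reported here. The FPKM start was read as 0-based, which made 7782 lengths equal RefSeq's against 486 otherwise, and is printed 1-based. Members and lists were chosen with earlier results of these data known. Named by rule were the C-type isoforms, the member with the highest count per cluster, called members, and called genes of the lists; no member was called, all beta and gamma counts were 0, and further members were named after their FPKM were seen. List counts cover every gene of a list, and some called genes are not reported here by name. Non-clustered protocadherins were to be counted only. Alternatives were a stricter threshold, other sets of genes to adjust over, centring on the median gene and 1 entry for the shared interval.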

Additional observations from a re-analysis of the deposited data

How the results depend on the processing

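The number of members called was recomputed for the 7 comparisons, both interactions and both averages over arms under 5 alternatives. Of the 55 values, 54 stayed at the main count of 0. The exception was the TTX response averaged over arms when adjusted over genes with a mean count of at least 50, with 1 member called: Pcdha4-g at an adjusted p of 0.0456 (Benjamini-Hochberg, Wald), in a range of 0.0456 to 0.0723 over the settings, where fewer genes are adjusted over. For Pcdha1 the adjusted p ranged from 0.0630 to 0.0876 for the BIC response averaged over arms and from 0.0878 to 0.106 for BIC in shRai1. With 2 tested members, no count could move by much, so the stability says little. Centring on the median gene shifted log2 changes by at most 0.04. Leaving out a library could not be run, since the files hold summaries. No paired analysis was possible because the tables carry no values per library. The FPKM bounds, the overlap of the spans and a mean count of 9.32 for Pcdha1 limit what these data can show of single isoforms.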
